A study of Mus musculus with 10 samples.

Results

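Femur RNA was compared between 3 female Fgfr1+/N330I mice and 3 female wild-type (WT) mice, which make up 6 of the 10 libraries of the series and share 1 series of library names. The 6 libraries were taken by their names, and a gene was tested where at least 3 of them reached 10 normalized counts. This left 14437 of 27179 genes: 7489 were at 0 in all 6 libraries and 5253 lay below the filter. Of the tested genes, 27 reached 10 normalized counts in all 3 mutants and in no WT mouse, and 22 did so in all 3 WT mice and in no mutant.

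The mutants carried the N330I amino acid change on 1 copy of Fgfr1 beside a normal copy, and the controls were WT littermates. The mice were 3 or 4 weeks old, an age given for the series and not for each animal, and no treatment is named in the labels. Each mouse gave 1 library. RNA was taken from pulverized femur and depleted of ribosomal RNA, and whether the marrow was removed is not given in the sources used here. A lower level can then come from fewer cells of a type or from less RNA per cell, and these cannot be told apart. Nothing in the labels ties mutant and WT animals to the same litter by number, and how the mice were chosen within litters is not given in the sources used here.

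FGFR1 is a receptor tyrosine kinase for fibroblast growth factors. Ligand binding activates the RAS and MAPK cascade, which induces feedback inhibitors such as the Sprouty and Spred proteins. In bone, FGFR1 acts in osteoblasts and osteocytes, and activating mutations in people cause skeletal disorders, osteoglophonic dysplasia among them. Osteocytes make FGF23, a hormone that lowers blood phosphate by acting on the kidney.

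The libraries held 24.9 to 39.6 M normalized counts each, from an estimated 18.1 to 30.0 M reads. Xist, which coats the silenced X, stood at 14007 to 19641 normalized counts and the Y-linked gene Ddx3y at 0 to 4, as the female labels say. With the ribosomal RNA precursor Rn45s set aside, 4.16% to 8.59% of the counts fell on osteoblast markers and 0.207% to 0.254% on osteocyte markers. Hemoglobin genes summed to 7 to 61 normalized counts, so red blood cell RNA was close to absent. Few markers of several blood cell types passed the filter. They were 6 of 14 neutrophil, 4 of 14 T or NK cell, 3 of 13 B cell and 2 of 14 erythroid markers. Of megakaryocyte and mast cell markers 6 of 14 passed. Macrophage markers were well measured, with 17 of 18 passing and 1.16% to 1.94% of the counts outside Rn45s.

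A pair of libraries stood apart. In female WT 3, Rn45s took 28.8% of the counts, against 0.149% to 0.275% in the other 5, and 12.9 M estimated reads remained without it. In female mutant 1, endothelial, pericyte and smooth muscle markers were far below the other 5 libraries. On the first principal component, with 43.8% of the variance, female mutant 1 lay at one end (-56.3) and female WT 3 (45.3) and female WT 1 (34.6) at the other. Results that rest on female mutant 1 or female WT 3 are given below with and without both of them, a choice made after the data were seen.

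The upstream sequences of 4 of the genes with the smallest p are printed because they stand for the leading differences in both directions. Ace and Igf2bp3 were higher in the mutants, and Slc15a2 and AA467197 were lower. Each is the 250 bases before the RefSeq start, 5′ to 3′ on the gene's strand, from RefSeq's GRCm38.p6, the same mouse assembly as mm10. Capitals mark a match to a motif searched on both strands: TATAAA in Ace, where it lies on the opposite strand, CACGTG (E-box) in Igf2bp3 and AA467197, and TGANTCA (AP-1) in AA467197. Slc15a2 held none of the motifs searched.
Ace (chr11:105967698-105967947, plus strand): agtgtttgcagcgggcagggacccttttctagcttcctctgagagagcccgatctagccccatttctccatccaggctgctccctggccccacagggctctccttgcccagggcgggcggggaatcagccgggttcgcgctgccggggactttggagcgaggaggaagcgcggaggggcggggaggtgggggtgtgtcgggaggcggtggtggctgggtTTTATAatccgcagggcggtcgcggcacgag
Igf2bp3 (chr6:49214955-49215204, minus strand): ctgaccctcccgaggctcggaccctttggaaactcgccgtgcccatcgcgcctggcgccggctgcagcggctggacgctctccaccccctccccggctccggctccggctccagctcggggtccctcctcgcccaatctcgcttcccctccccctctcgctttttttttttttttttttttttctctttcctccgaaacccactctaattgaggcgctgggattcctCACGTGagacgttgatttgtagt
Slc15a2 (chr16:36784963-36785212, minus strand): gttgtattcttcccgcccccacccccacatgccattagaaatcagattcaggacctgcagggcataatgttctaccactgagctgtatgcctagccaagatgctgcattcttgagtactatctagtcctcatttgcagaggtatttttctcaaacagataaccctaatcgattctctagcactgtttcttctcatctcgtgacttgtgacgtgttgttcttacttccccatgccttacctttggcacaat
AA467197 (chr2:122637637-122637886, plus strand): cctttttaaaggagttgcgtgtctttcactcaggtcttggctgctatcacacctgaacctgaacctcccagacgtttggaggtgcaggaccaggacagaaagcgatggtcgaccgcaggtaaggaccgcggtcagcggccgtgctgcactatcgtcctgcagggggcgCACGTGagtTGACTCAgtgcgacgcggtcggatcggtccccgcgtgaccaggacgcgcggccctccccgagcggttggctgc

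Promoter entries were found for 16 of the 24 leading genes. Of these 16, 3 held TATAAA (Ace, Angpt4 and Gdpd2), as did 3504 of 27025 promoters of the same length. CACGTG was in 2 of the 16, 1 from each direction (6.05% of all promoters). TGANTCA was in AA467197 (6.87% of all promoters) and GGAATG, the TEAD motif, in Vgll3 (12.6%). CCGGAAG, an ETS motif (7.05%), and TGTTTAC, a FOXO motif (3.09%), were in none of the 16. None of these motifs overlapped another in the 4 sequences shown. None of the 6 motifs was in more than 3 of the 16 windows, which says nothing about the factors that bind them.

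The mutated gene was compared first. Fgfr1 (chromosome 8, 25518772 to 25575714) was measured at 8856, 12560 and 12990 normalized counts in the mutants and at 11326, 8610 and 8848 in WT mice. The groups overlapped, since female mutant 1 lay among the WT mice and female WT 1 above that mutant. On the log2(normalized count + 1) scale the difference was 0.25 ± 0.22 (SE). Its exact permutation p was 0.2 (two-sided), where 3 against 3 libraries can reach 0.1 at the lowest. Without female mutant 1 and female WT 3 it was 0.37. Counts per gene do not separate the N330I allele from the normal one, so they cannot check the genotype labels.

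Fgf23, the phosphate hormone, stood at 2, 4 and 11 normalized counts in the mutants and at 1, 0 and 0 in WT mice. Every mutant lay above every WT mouse, on an estimated 18 reads in the mutants and 1 read in WT mice. With 0 reads, the upper limit was 2.61 normalized counts for female WT 2 and 6.58 for female WT 3 (3 reads, counting error alone), so the lowest mutant value lies within what a WT value of 0 allows. The difference was 2.16 ± 0.67 (SE) on the same scale, and its exact permutation p (two-sided) was 0.1, the smallest that 3 against 3 can give. Fgf23 lay below the filter of the transcriptome-wide fit. Fgf23 differences ran from 1.62 without female mutant 3 to 2.62 without female mutant 1.

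Across the transcriptome, 0 of 14437 genes (0%) passed an adjusted p under 0.05 in either direction with limma, the lowest being 0.163. Before adjustment, 609 higher (4.22%) and 611 lower genes (4.23%) had a p under 0.05. In 970 genes (6.72%) every mutant lay above every WT mouse, and in 1040 (7.2%) every mutant lay below. The groups were also 2-fold or more apart in 160 genes higher (1.11%) and 146 lower (1.01%). Estimates were above 0 in 49.5% of tested genes and below 0 in 50.5%, with a median of -0.0018. These even splits depend on the scaling: with totals made equal outside Rn45s the numbers at an unadjusted p under 0.05 were 1033 higher and 314 lower, and those without overlap 1837 and 499. When 1 library was left out, 4 higher genes passed without female WT 2, 1 lower gene passed without female mutant 2, and 0 passed in the other 4 cases. Counts without female mutant 1 and female WT 3 were 374 higher and 348 lower at an unadjusted p under 0.05, with 0 past the threshold.

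**Figure D1:**
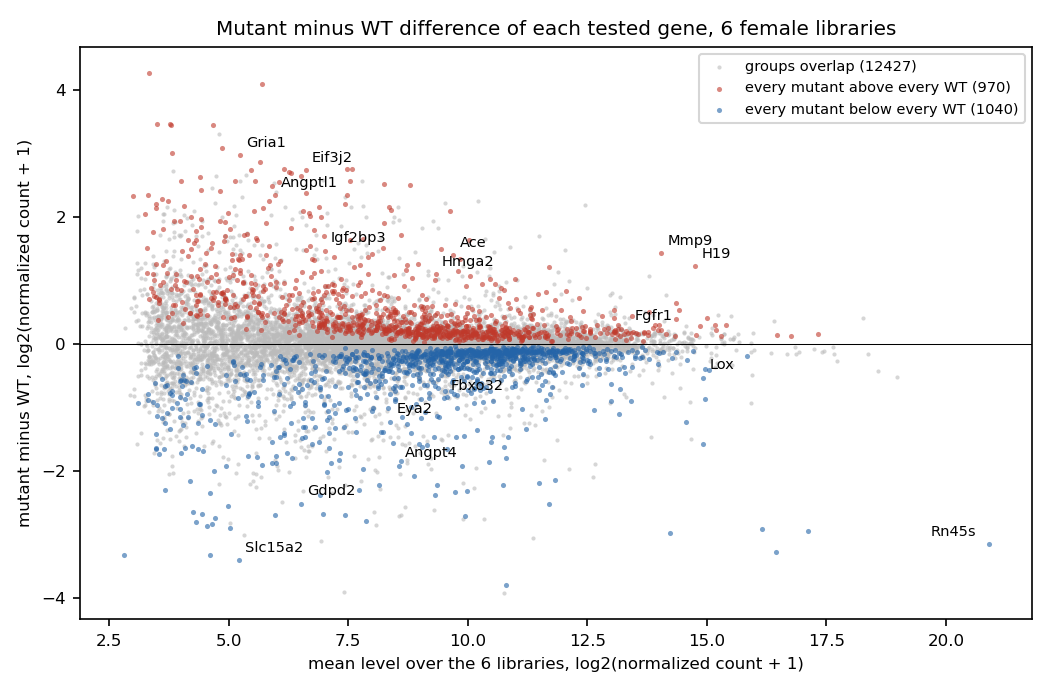
Each point is 1 of 14437 tested genes, with its mean level over the 6 female libraries on the x axis and the mutant minus WT difference on the y axis, both on the log2(normalized count + 1) scale. Red points mark the 970 genes with every mutant above every WT mouse, blue points the 1040 with every mutant below, and grey points those whose groups overlap; Slc15a2 stands at -3.41 among low genes, and Rn45s at -3.15 at the far right, where female WT 3 alone is high.

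Genes without overlap were not short or long as a class. Median exon length was 2809 bases in the 970 higher genes, 3032.5 in the 1040 lower genes and 2824 in all tested genes. The higher genes were of lower level, with a median of 374 normalized counts against 870 in the lower genes and 597 in all. Chromosome 8, which holds Fgfr1, carried 4.64% of the higher and 3.94% of the lower genes, and 5.35% of all tested genes. Within 10 Mb of the Fgfr1 start, 84 genes were tested, with a median difference of 0.0082. In this window Defb3 and Unc5d were higher without overlap, Angpt2, Rbpms, Saraf and Tacc1 were lower, and 0 of the 84 passed the test. Unc5d, at 10, 16 and 13 in the mutants and 6, 7 and 9 in WT mice, met the filter through the mutants alone. These 6 genes were named after their values were seen.

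The 12 genes with the smallest p in each direction, predicted genes with Gm numbers and the like left aside, are given next; their limma adjusted p ran from 0.163 to 0.293 for the higher and from 0.163 to 0.252 for the lower genes, and none passed. They were chosen for this difference, so their values describe it. Ace, the angiotensin-converting enzyme (chromosome 11, 105967945 to 105989964), stood at 1013, 1271 and 1316 normalized counts in the mutants and at 390, 539 and 443 in WT mice. The lowest mutant was thus well above the highest WT mouse, and the mean was 2.62 times as high (difference 1.39 ± 0.15 SE, adjusted p = 0.163).

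Genes known from fetal growth were among the leading genes. Igf2bp3, an RNA-binding protein of fetal tissues (chromosome 6, 49085218 to 49214954), had 203, 184 and 176 normalized counts in the mutants and 80, 64 and 59 in WT mice. Hmga2, a chromatin protein that promotes growth in the embryo (chromosome 10), had 942, 880 and 793 in the mutants and 330, 475 and 432 in WT mice. The mutant means were 2.77 and 2.11 times the WT means, at differences of 1.47 ± 0.18 and 1.09 ± 0.15 (adjusted p = 0.163 and 0.185). H19, an imprinted non-coding RNA of fetal tissues and the member of the same list with the next smallest p, stood at 33138, 37605 and 44920 against 19436, 12103 and 18975. Its difference was 1.22 (adjusted p = 0.316), and every mutant again lay above every WT mouse. Igf2bp2, a paralog of Igf2bp3, was higher by 0.38 with no overlap (adjusted p = 0.431). Across the list of IGF axis and imprinted growth genes, 17 of 23 tested members had estimates above 0, 7 were higher without overlap and 0 lower (6.72% and 7.2% over all genes), and the median was 0.28, against 49.5% above 0 and a median of -0.0018 over all tested genes. These counts include Igf2bp3, Hmga2, H19 and Igf2bp2, and the list was chosen with earlier results of these data known. They are thus no separate support for those genes. Igf2 itself stood at 1241, 1721 and 1357 in the mutants and 1227, 782 and 2209 in WT mice, so its groups overlapped.

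Gatm and AA467197 are neighbours on chromosome 2 and differed in opposite directions. Gatm, the enzyme of the first step of creatine synthesis (122594473 to 122611277), had 764, 753 and 583 normalized counts in the mutants and 352, 256 and 268 in WT mice (difference 1.26 ± 0.17, adjusted p = 0.163). AA467197 (122637887 to 122641076), for which the files give no other name, had 208, 267 and 260 against 542, 506 and 581 (difference -1.15 ± 0.13, adjusted p = 0.163). Neither pair of groups overlapped.

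Eif3j2, a copy of the gene for the j subunit of translation factor eIF3 on chromosome 18 (43475418 to 43477836), had the smallest p of all. It stood at 149, 150 and 207 normalized counts in the mutants and at 32, 22 and 20 in WT mice, a difference of 2.74 ± 0.26 (adjusted p = 0.163). Its near-identical paralog Eif3j1 on chromosome 2 had 265, 274 and 321 against 450, 370 and 428, so reads could be split between the copies and both values are uncertain. The gene next to it, Gm3650 (43445110 to 43475271), had 20, 20 and 15 in the mutants and 0 in all 3 WT mice. In the fit that takes its spread from all 10 libraries both Eif3j2 and Gm3650 passed (adjusted p = 0.0176 each). Gm3650 met the filter on low values through the mutants alone, so its difference is no support for that of Eif3j2. Eif3j1 and Gm3650 were named after their values were seen.

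The other leading genes with higher values in the mutants came from several classes. Angptl1, a secreted angiopoietin-like protein, had 82, 123 and 103 normalized counts against 14, 28 and 18, and its mean was 5.13 times as high. Gria1, a glutamate receptor subunit, had 50, 104 and 43 against 8, 10 and 4, near the low end of the tested range. Its mutant values alone met the filter, and only the WT value of 10 reached that level. Arntl2, a clock transcription factor, had 92, 86 and 105 against 43, 37 and 33. In these 3 genes no mutant came near the WT range. Tenm3, a teneurin, stood at 1582, 1952 and 2158 against 896, 1094 and 807. Lrrn3, a leucine-rich repeat protein, stood at 308, 287 and 253 against 148, 138 and 143. Smaller but narrow differences were those of Ide, the insulin-degrading enzyme (0.55 ± 0.07), and Lsp1, an actin-binding protein of leukocytes (0.52 ± 0.07). Ide ran from 2892 to 3054 in the mutants and from 1972 to 2160 in WT mice.

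Among the lower genes, Slc15a2, a peptide transporter (chromosome 16, 36750164 to 36784962), had 5, 7 and 4 normalized counts in the mutants and 86, 64 and 50 in WT mice. The gene met the filter of 10 normalized counts through the WT mice alone, so its difference and p only describe it. The WT mean was 12.5 times the mutant mean (difference -3.41 ± 0.37, adjusted p = 0.163), and the mutants lay close to the depth limit of 2.54 to 3.03 normalized counts for 3 reads in these libraries. Angpt4, a ligand of the endothelial receptor Tie2, had 162, 150 and 144 against 840, 428 and 535 (difference -1.92 ± 0.24). Gdpd2, a glycerophosphodiester phosphodiesterase, had 22, 28 and 24 against 235, 91 and 143. The mutants were close to each other in both genes, and the spread lay among the WT mice.

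Fbxo32, a ubiquitin ligase known from muscle atrophy (chromosome 15), had 530, 580 and 448 normalized counts in the mutants and 931, 956 and 915 in WT mice (difference -0.85 ± 0.11, adjusted p = 0.163). Vgll3, a cofactor of TEAD factors, had 433, 455 and 434 against 649, 693 and 726 (-0.64 ± 0.08, adjusted p = 0.163). Eya2, a phosphatase and transcriptional coactivator, had 162, 197 and 239 against 460, 396 and 544. For each the highest mutant was below the lowest WT mouse. Lox, the lysyl oxidase that cross-links collagen (chromosome 18), was a gene of high level, at 26952, 24892 and 24251 against 37233, 37294 and 35561 (-0.53 ± 0.08, adjusted p = 0.252). The others were Gcnt2, a glycan-branching enzyme (-0.60), Rin3, a RAB5 exchange factor (-0.57), Ly75, an endocytic receptor of dendritic cells (-1.33), and Rassf3, a RAS-association protein (-0.46).

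**Figure D2:**
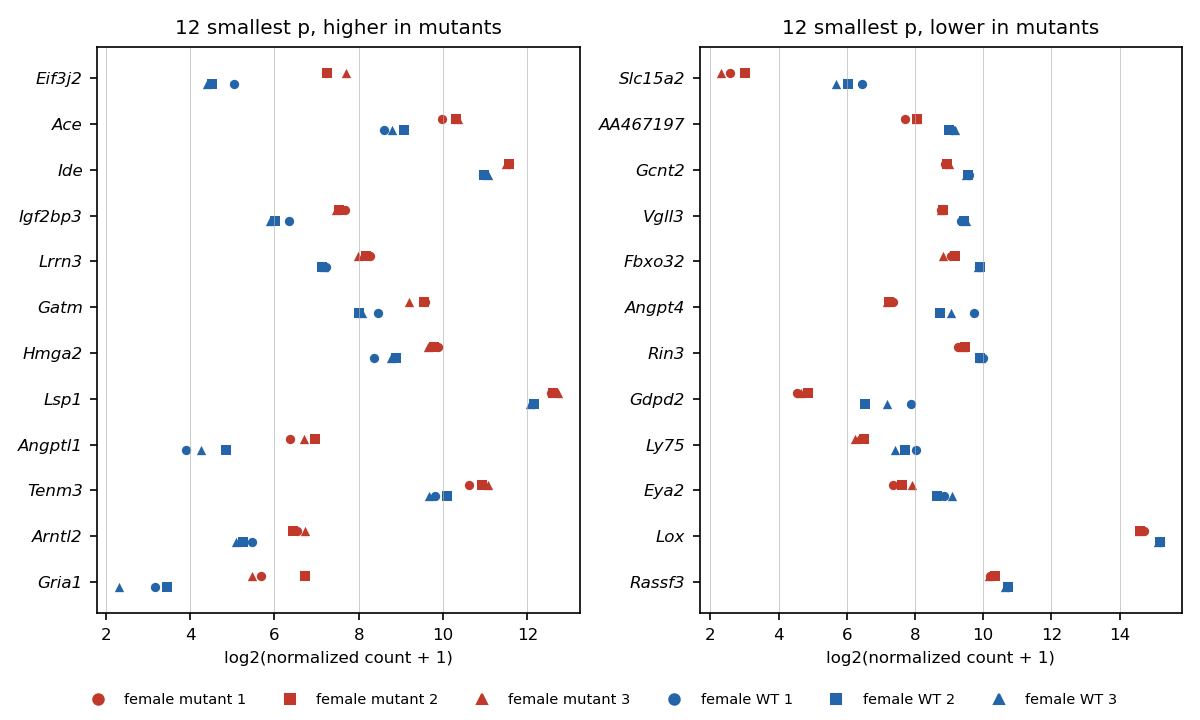
The 12 genes with the smallest p in each direction are plotted by library on the log2(normalized count + 1) scale. Red symbols mark mutants, blue symbols WT mice and the shape the replicate number, which the labels do not give as a pairing of mice. In every row the red and blue symbols stand apart, with differences from 0.52 for Lsp1 to 2.96 for Gria1 among the higher genes and from -0.46 for Rassf3 to -3.41 for Slc15a2 among the lower genes.

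The largest differences were mostly those of markers of other cell types or of genes with an extreme value in 1 library. Their source was not tested. Of the 8 genes with the largest positive estimates among those without overlap whose higher group averaged 100 or more normalized counts, Myh8, Atp2a1, Igfn1, Actn2 and Myh4 are skeletal muscle genes. The others were Crtac1, a cartilage-linked matrix protein, H2-Eb1, a class II histocompatibility gene, and Eif3j2, whose difference was narrow (2.74 ± 0.26 SE). Among the 8 with the largest negative estimates by the same rule, Rn45s, Rn18s, Rpph1 and Lars2 were high in female WT 3. Rpph1, the RNA of ribonuclease P, stood at 10, 11 and 21 in the mutants and at 26, 26 and 10550 in WT mice. Without female mutant 1 and female WT 3 the differences of these 4 lay between -0.83 and -0.66. Ctrb1 and Reg1, genes of the exocrine pancreas, were also highest in female WT 3, at 978 and 239 normalized counts, against 143 to 150 and 47 to 50 in the other WT mice and 31 to 55 and 10 to 14 in the mutants. The last were Rgs5, a pericyte gene, and Mall, a membrane protein gene, whose lowest values, 33 and 5, were both in female mutant 1.

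FGF pathway genes were described as the groups closest to the mutated receptor. Among ligands, Fgf1 stood at 136, 159 and 278 normalized counts in the mutants and at 81, 29 and 72 in WT mice. Fgf18, a ligand active in cartilage and bone, stood at 415, 292 and 305 against 96, 234 and 94. Fgf10 had 274, 146 and 425 against 54, 130 and 79, and the carrier protein gene Fgfbp3 had 55, 78 and 73 against 33, 46 and 33. In these 4 genes every mutant lay above every WT mouse, at estimates of 1.70, 1.37, 1.63 and 0.86 (adjusted p = 0.492 to 0.529). Of the 13 tested members, 10 had estimates above 0, with a median of 0.25. Without overlap 4 were higher and 0 lower (6.72% and 7.2% over all genes). Among receptors, Fgfr3 had 63, 160 and 226 against 578, 179 and 458, with overlapping groups, and Fgfr2 had 1371 to 2104 against 1128 to 2395.

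Feedback targets of FGF and MAPK signalling were mixed, with 14 of 20 estimates above 0 and 6 below. Spred1, which inhibits RAS activation, stood at 2061, 1972 and 1916 in the mutants and at 1605, 1509 and 1340 in WT mice (0.42, adjusted p = 0.405). Spred2 stood at 882, 936 and 876 against 745, 697 and 658. Sprouty gene Spry1 stood at 1885, 2197 and 1901 against 1608, 1075 and 1031 (0.71, adjusted p = 0.458), and Spry2 at 721, 600 and 609 against 497, 508 and 491. Etv5, a transcription factor that FGF signalling induces, was the fifth without overlap, at 1796, 1521 and 1283 against 1032, 1175 and 1193. Of the 20 members, these 5 were higher without overlap and 0 lower (6.72% and 7.2% over all genes), 15 had overlapping groups, and the median was 0.21. The median moved between 0.12 without female mutant 2 or female WT 2 and 0.31 without female WT 3. Dusp6, a MAPK phosphatase often read as an FGF target, stood at 1873, 1934 and 1664 against 1959, 1803 and 1875 and was not among them; it was named after its values were seen.

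**Figure D3:**
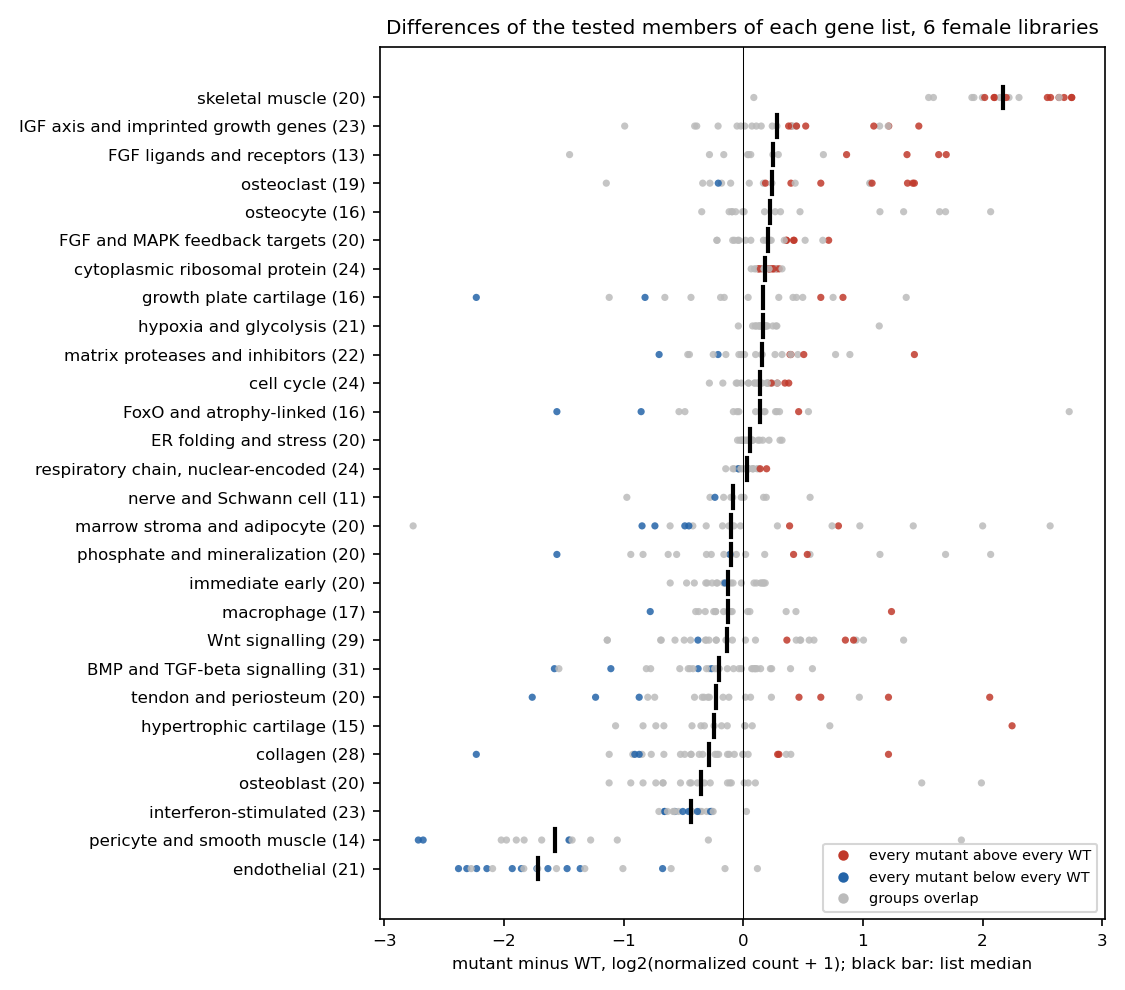
Each row is a gene list with 10 or more tested members (their number in brackets), each point 1 member, and the x axis the mutant minus WT difference on the log2(normalized count + 1) scale, with the list median as a black bar. Medians ran from -1.72 for endothelial to 2.17 for skeletal muscle markers, and apart from pericyte markers (-1.57) the other medians lay within 0.5 of 0.

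No osteoblast marker stood without overlap between the genotypes. Of 20 members, 5 had estimates above 0, with a median of -0.35. The count without overlap was 0 in either direction, where the shares over all genes were 6.72% and 7.2%. At shares this low, 0 of 20 says little. Col1a1, the main bone collagen gene, ran from 314568 to 467003 normalized counts in the mutants and from 371467 to 826152 in WT mice. The osteocalcin genes leaned the other way: Bglap2 stood at 167, 631 and 894 against 186, 45 and 175, with female mutant 1 among the WT mice. The list median was 0.02 with quantile normalization, where Col1a1 and Col1a2 also had estimates above 0, and 0.02 without female mutant 1 and female WT 3. List means of the osteoblast genes were lowest in female WT 2 (10.78) and female mutant 1 (10.87) and ran from 12.01 to 12.52 in the other 4 libraries.

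Osteocyte markers had a similar order. Dmp1, a matrix protein of osteocytes, stood at 1113, 6726 and 4346 in the mutants and at 3114, 181 and 1706 in WT mice, and Mepe at 14, 185 and 193 against 107, 1 and 33. Female WT 2 was the lowest library in both genes. Of 16 tested members, 10 had estimates above 0, with a median of 0.22 that was -0.13 without female WT 2. Of these 16, 0 stood without overlap in either direction (6.72% and 7.2% over all genes), which says little at shares this low. In the phosphate and mineralization list, 8 of 20 members had estimates above 0, and the median was -0.11. Of these 20, 2 were higher and 2 lower without overlap (6.72% and 7.2% over all genes). Ank, which exports pyrophosphate, stood at 4390, 5511 and 5684 against 4050, 3515 and 4027, and Mgp, an inhibitor of calcification, at 21560, 32653 and 23099 against 21524, 15218 and 16307. Pdk4, a kinase of fuel metabolism that shares the list, had 107, 205 and 207 against 722, 319 and 509.

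Osteoclast genes lay in both directions, more of them with higher values in the mutants. Mmp9, the gelatinase of osteoclasts, stood at 32343, 21145 and 19436 normalized counts in the mutants and at 14291, 7740 and 6135 in WT mice. Ctsk, the protease that digests bone collagen, stood at 31101, 22347 and 23425 against 19884, 16136 and 13178. Dcstamp, needed for fusion of osteoclast precursors, had 641, 345 and 463 against 241, 247 and 182, and the receptor gene Oscar had 448, 314 and 320 against 244, 106 and 90. Female mutant 1 had the highest value in each of these 4 genes and no mutant overlapped a WT mouse, at estimates of 1.43, 0.65, 1.08 and 1.42 (adjusted p = 0.443 to 0.523). In all, 7 of 19 tested members were higher without overlap and 1 lower (6.72% and 7.2% over all genes), 13 had estimates above 0, and the median was 0.24. The lower one was Nfatc1 (-0.21). Atp6v0d2 (-0.34), Itgb3 (-0.28), Tnfrsf11a (-0.18), Tcirg1 (-0.11) and Sigirr (-1.14) also had estimates below 0, with overlapping groups. Without female mutant 1 and female WT 3 the median was 0.15. Of 17 tested macrophage markers, which share the lineage, 1 was higher (Marco, 1.24) and 1 lower (Cx3cr1, -0.78) without overlap (6.72% and 7.2% over all genes). Their median was -0.13. They held 1.16% to 1.74% of the counts outside Rn45s in the mutants and 1.17% to 1.94% in WT mice.

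Cartilage genes had no common direction within their lists. Col2a1, the cartilage collagen gene, stood at 252, 1000 and 577 in the mutants and at 3623, 1172 and 3562 in WT mice (-2.23, adjusted p = 0.53), and Col9a3 at 28, 27 and 34 against 49, 53 and 57. Sox5, a transcription factor of chondrocytes, was on the other side, at 177, 113 and 161 against 83, 90 and 75. Of 16 tested growth plate genes, 2 were higher and 2 lower without overlap (6.72% and 7.2% over all genes). Their median was 0.17, which was -0.13 without female WT 2. In the hypertrophic cartilage list 1 of 15 genes was higher and 0 lower without overlap (6.72% and 7.2% over all genes). It was Hhip, which binds and restrains hedgehog ligands, with 80, 122 and 79 against 22, 26 and 11 (2.25, limma adjusted p = 0.316). The hedgehog target genes Ptch1 and Gli1 had 441 to 724 against 417 to 1144 and 45 to 140 against 35 to 108, both with overlapping groups. The hypertrophic median was -0.24, and 0.14 without female mutant 1 and female WT 3.

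Among collagens and matrix genes outside cartilage, those without overlap lay in both directions. Col12a1, a collagen of tendon and periosteum, stood at 19295, 22718 and 25149 in the mutants and at 47851, 36338 and 38686 in WT mice (-0.87, adjusted p = 0.303). Tnc, tenascin C, had 8408, 18367 and 16651 against 45701, 20465 and 35793, and Col8a1 had 5497, 8273 and 8637 against 19624, 9165 and 14377. Col14a1 stood the other way at 4782, 4508 and 4232 against 1348, 3764 and 1439, and passed the test when female WT 2 was left out (1.69, adjusted p = 0.014). Scx, the tendon transcription factor, had 372, 430 and 446 against 306, 281 and 314. Over the 28 collagen genes 7 estimates were above 0, 3 genes were higher and 3 lower without overlap, near the shares over all genes (6.72% and 7.2%), and the median was -0.29. It was -0.04 without female mutant 1 and female WT 3. In the tendon and periosteum list 4 of 20 were higher and 3 lower (6.72% and 7.2% over all genes), with a median of -0.23 that was 0.02 without those libraries. Mmp23, a membrane metalloproteinase, had 914, 930 and 1045 against 1894, 1385 and 1463 (-0.70, limma adjusted p = 0.359). Of 22 protease and inhibitor genes 4 were higher and 2 lower without overlap (6.72% and 7.2% over all genes).

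Wnt genes showed no common direction that held across libraries, and BMP or TGF-beta genes leaned lower in the mutants, with list means that overlapped. Wnt7b, a ligand that promotes bone formation, stood at 285, 233 and 294 against 187, 138 and 110, and the target gene Axin2 at 208, 221 and 239 against 167, 103 and 107, neither with overlap. The Wnt inhibitor family member Dkk3 was lower, at 4565, 3939 and 4884 against 5385, 6045 and 5929. Of 29 Wnt genes 3 were higher and 1 lower without overlap (6.72% and 7.2% over all genes). Their median was -0.14, which was 0.10 without female mutant 1 and 0.16 without female WT 1. List means of the BMP and TGF-beta genes ran from 8.93 to 9.50 in the mutants and from 9.09 to 9.86 in WT mice. Of these 31 genes 21 had estimates below 0, with a median of -0.20. Without overlap 0 were higher and 4 lower (6.72% and 7.2% over all genes). Bmp1, a procollagen protease, and the ligand genes Tgfb1 and Bmp6 were among the lower ones. Tgfb1 stood at 5286, 5714 and 5124 against 6272, 6378 and 6703 (-0.26, adjusted p = 0.489).

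Stromal and adipocyte genes were split. Ebf2, a transcription factor of marrow stroma, stood at 373, 342 and 356 in the mutants and at 210, 246 and 167 in WT mice (0.80, adjusted p = 0.405), and the adhesion gene Vcam1 at 2932, 2668 and 3175 against 2321, 2299 and 2079. The adipogenic factors Cebpa and Pparg were lower, at 3106, 3069 and 2807 against 3491, 4804 and 4404, and at 189, 237 and 152 against 272, 312 and 469. Neither pair overlapped, and the adjusted p was 0.443 to 0.526 for Vcam1, Cebpa and Pparg. The adipocyte genes Plin1 (2.57), Cfd (2.00), Plin4 (1.42) and Adipoq (0.97) had estimates above 0, with overlapping groups. Lpl (-0.45), also of adipocytes, was lower without overlap, and Fabp4 (-0.12) lay below 0 with overlap. The stromal factor genes Kitl (-0.74) and Cxcl12 (-0.61) had estimates below 0, Kitl without overlap. Of 20 members 8 had estimates above 0 and 12 below. Of these 20, 2 were higher and 4 lower without overlap, the former a share near that of all genes (6.72% and 7.2%), and the median was -0.10.

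Vessel markers were the lowest list in the mutants, and the size of the difference rested on female mutant 1. Emcn, a marker of bone vessels, stood at 47, 593 and 313 normalized counts in the mutants and at 1217, 720 and 1048 in WT mice, and the VEGF receptor gene Kdr at 492, 992 and 484 against 1921, 1011 and 2075. Eng, an endothelial coreceptor, had 1257, 1813 and 1453 against 2221, 2275 and 2663 (-0.67, adjusted p = 0.431). All 21 members were tested, 20 had estimates below 0 and 11 were lower without overlap (7.2% over all genes). The list mean was 6.51 in female mutant 1 and 9.43 and 8.70 in mutants 2 and 3, while WT mice lay between 9.39 and 10.04. Endothelial genes took 0.0162% to 0.0984% of counts outside Rn45s in mutants, against 0.0938% to 0.155% in WT mice. The median of -1.72 was -0.68 without female mutant 1 and -0.80 without female mutant 1 and female WT 3. Pericyte and smooth muscle markers had a median of -1.57, which was -0.70 without both libraries. Of their 14 estimates 13 were below 0, and 3 members were lower without overlap (7.2% over all genes). The part of vessel RNA in the differences of Angpt4 and Angpt2, ligands that act on vessels, was not tested.

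Skeletal muscle RNA was a trace in every library. Ttn, titin, had 57, 157 and 256 normalized counts in the mutants and 30, 35 and 26 in WT mice, and Ryr1, the calcium release channel, had 37, 121 and 183 against 17, 23 and 9. All 20 tested members of 23 had estimates above 0 and 10 were higher without overlap (6.72% over all genes), with a median of 2.17. The list held 0.00764% to 0.0562% of counts outside Rn45s in the mutants and 0.00318% to 0.00815% in WT mice, most in female mutant 3. Fbxo32, a gene that muscle also expresses, was lower in the same mutants, and the part of muscle RNA in other genes was not tested.

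**Figure D4:**
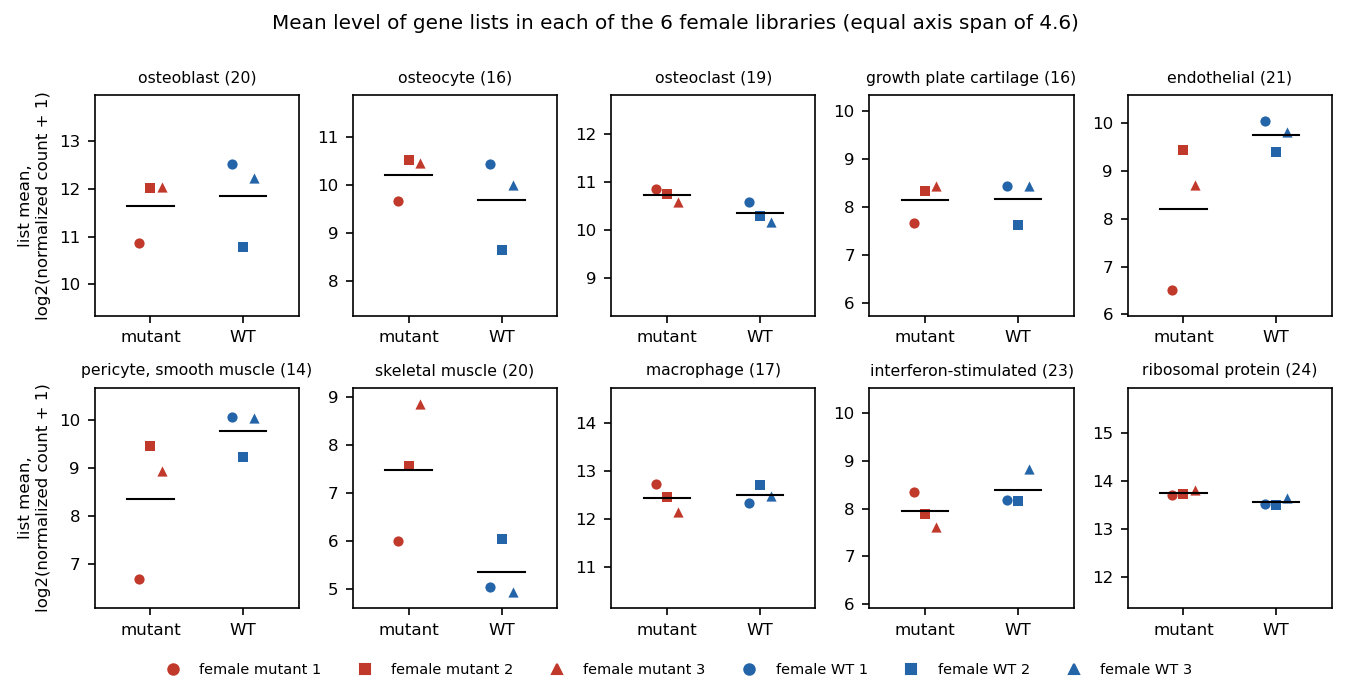
Each panel shows, for 1 gene list, the mean log2(normalized count + 1) of its tested members in each of the 6 libraries, with mutants in red, WT mice in blue, symbols for the replicate number and the group mean as a line; all panels span the same range. Female mutant 1 stands at 6.51 in the endothelial and 6.68 in the pericyte panel, female WT 2 and female mutant 1 are lowest for osteoblast genes.

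Of the housekeeping and response groups, ribosomal protein genes leaned higher in the mutants by a small difference, and interferon-stimulated genes leaned lower. Cytoplasmic ribosomal protein genes had a median of 0.18, with all 24 estimates above 0 and 12 of them higher without overlap (6.72% over all genes). Rpl11 stood at 6236, 5795 and 6365 against 5162, 4866 and 5100 and Rps6 at 7370, 6848 and 7843 against 5928, 5817 and 6141. With 18 settings, the list median stayed between 0.16 and 0.26. Nuclear-encoded respiratory chain genes (median 0.04), ER folding genes (0.05) and hypoxia and glycolysis genes (0.16) had 2, 0 and 0 members higher and 1, 0 and 0 lower without overlap. They had 24, 20 and 21 tested members, and the shares over all genes were 6.72% and 7.2%. Cell cycle genes had a median of 0.14 with 4 of 24 higher without overlap (6.72% over all genes), among them Mki67, a proliferation marker, at 1327, 1541 and 1208 against 1093, 881 and 1162. Of 23 interferon-stimulated genes 22 had estimates below 0 and 8 were lower without overlap (7.2% over all genes), with a median of -0.44. Isg15 stood at 285, 249 and 282 against 418, 329 and 575, and the list median was -0.22 without female WT 3 or without female mutant 3. Of 20 immediate early genes, a class that responds to handling and stress, 1 (Klf6) was lower without overlap (7.2% over all genes). Their median was -0.13.

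The other 4 libraries of the series, labelled male, carry another set of library names, so labelled sex and library name series cannot be told apart. In the library labelled male mutant 2, Xist stood at 7972 and Ddx3y at 4, against its label, and it is named by its label here. The mutant minus WT difference between the 2 series was tested for each gene in a fit of 4 group means. With limma, 0 of 14437 genes passed and 572 (3.96%) had an unadjusted p under 0.05. Without male WT 2, however, 2656 genes passed and 5015 had an unadjusted p under 0.05. That fit leaves 1 male WT library, which is assumed to vary like the other groups, so its counts rest on male WT 1 standing alone.

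Genes without overlap in the female libraries leaned the same way in the male ones. Of the 970 higher genes, 595 (61.3%) had a male estimate above 0, as had 50.1% of all tested genes. Of the 1040 lower genes, 591 (56.8%) had a male estimate below 0, as had 49.8% of all. With 2 against 2 libraries, 13.2% of all tested genes were higher and 13.6% lower without overlap in the male libraries. Among the 970, 188 (19.4%) were also higher there and 65 (6.7%) were lower, and among the 1040, 168 (16.2%) were also lower and 84 (8.08%) were higher. The 2 sets of libraries share no animals.

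Of the 12 leading higher genes 9 had male estimates above 0, and Ace, Lrrn3, Hmga2, Angptl1 and Tenm3 were higher without overlap there too. Ace stood at 538 and 1194 in the labelled male mutants and at 300 and 357 in the male WT mice (1.29 ± 0.34), and its difference between the series was -0.10 ± 0.43 (adjusted p = 0.944). Of the 12 leading lower genes 6 had male estimates below 0, and AA467197, Fbxo32, Eya2 and Rassf3 were lower without overlap. Fbxo32 stood at 304 and 425 against 960 and 788 (-1.27 ± 0.20), with a difference between the series of -0.42 ± 0.26 (adjusted p = 0.8). Eya2 stood at 190 and 257 against 446 and 369.

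Other leading genes had opposite signs. Igf2bp3 had 105 and 524 in the labelled male mutants and 439 and 417 in the male WT mice, and Slc15a2 had 14 and 17 against 18 and 5. Eif3j2 stood at 132 and 182 against 218 and 202, so that 7 of the 10 libraries lay at 132 to 218 and the 3 female WT libraries at 20 to 32. Its difference between the series was the one with the smallest p, at -3.17 ± 0.40 (adjusted p = 0.331). H2-M2, a histocompatibility gene, was next, with 50, 105 and 79 against 32, 43 and 24 in females and 24 and 26 against 160 and 156 in labelled males (adjusted p = 0.331). The others by this rule were Slc5a7, Kcnj2 and Slc15a2 (adjusted p = 0.8 each).

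**Figure D5:**
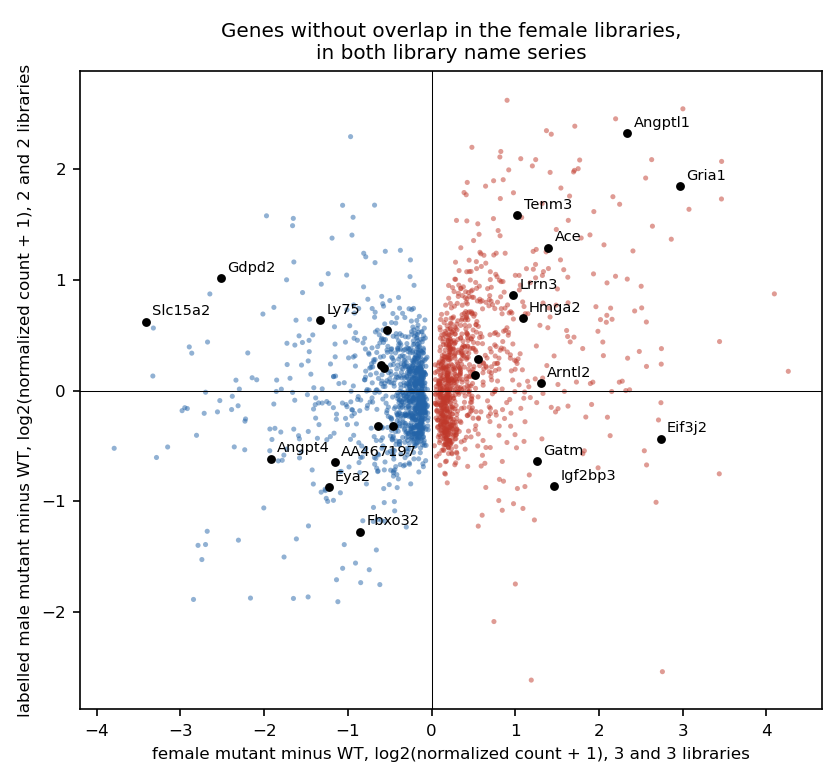
Each point is a gene whose groups do not overlap in the female libraries, with its difference there on the x axis and its difference in the labelled male libraries on the y axis, both on the log2(normalized count + 1) scale; red genes are higher and blue genes lower in female mutants, and the 24 leading genes are black. Of the red genes 61.3% lie above 0 on the y axis and of the blue genes 56.8% below it, with Ace, Angptl1 and Fbxo32 on the same side in both and Eif3j2, Igf2bp3 and Gdpd2 on opposite sides.

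Lists that stood out in females had other medians in the labelled males. Skeletal muscle markers had 2.17 and -0.27, endothelial markers -1.72 and 0.12, and ribosomal protein genes 0.18 and -0.36. Medians were of the same sign for osteoclast markers (0.24 and 0.95), FGF ligands and receptors (0.25 and 0.39), FGF and MAPK feedback targets (0.21 and 0.51), IGF axis and imprinted genes (0.28 and 0.51) and interferon-stimulated genes (-0.44 and -0.63). A median above 0 in the labelled males was not particular to these lists. Osteoblast (-0.35 and 0.96), collagen (-0.29 and 0.82) and Wnt genes (-0.14 and 0.71) changed sign. So did tendon and periosteum genes (-0.23 and 0.69) and BMP and TGF-beta genes (-0.20 and 0.46). The differences between these medians were not tested.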

How the data were processed

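Femur RNA was sequenced after ribosomal RNA depletion. The deposited values are scores: normalized counts per gene that the authors made with DESeq2 1.14.1 from reads aligned with STAR 2.5.2b to mm10, per the submitters' processing notes, and rounded to whole numbers. They are therefore not raw counts, and no count test was run. Coordinates are those of the deposited table. Every column of values belonged to a named library.

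A gene was kept where at least 3 of the 6 libraries reached 10 normalized counts. limma 3.58.1 in R 4.3.3, with a trended and robust spread, was fitted to log2(normalized count + 1), and p-values were adjusted by Benjamini-Hochberg over all 14437 genes, with 0.05 as the threshold. For Fgfr1 and Fgf23 an exact permutation test (two-sided) was used. The difference between the library name series came from 4 group means in all 10 libraries. Fits were checked on simulated data.

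The 6 libraries, the gene lists and the tests were chosen with earlier results of these data known. Named genes were Fgfr1 and Fgf23, the 12 with the smallest p and the 8 with the largest estimate in each direction, the 4 lowest p-values within each list, the 5 with the smallest p for the series difference, Xist and Ddx3y. Lists were described by counts and medians with no test. The p-values measure the spread between 3 mice a group. Depth was estimated from the step between low values, at 18.1 to 30.0 M reads a library; 1 read was worth 0.845 to 2.19 normalized counts, and limits from 3 reads cover counting error alone. Alternatives were other pseudocounts, filters, scalings and weights, a replicate block, and leaving out libraries.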

Additional observations from a re-analysis of the deposited data

How the results depend on the processing

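With 3 libraries a group, 0 genes passed in either direction under the other pseudocounts, filters (19690 genes tested without one, 12395 at a mean of 50 or more), scalings and weights. The fit that took its spread from all 10 libraries had 2 higher genes past the threshold (Eif3j2 and Gm3650), with 287 higher and 352 lower at an unadjusted p under 0.05. Totals made equal outside Rn45s took the median of all genes from -0.0018 to 0.0753, with 1033 higher and 314 lower at an unadjusted p under 0.05 and 1837 and 499 without overlap. Without female mutant 1 and female WT 3, chosen after seeing the data, the numbers were 374 and 348, and 2345 and 2566 without overlap among 2 against 2 libraries. Leaving out 1 library gave 0 to 4 higher genes past the threshold and 0 to 1 lower. Without female WT 2 these were Col14a1, Gfra1, BC022687 and Serpina3h, and without female mutant 2 it was Gm8615. Those with an unadjusted p under 0.05 numbered 359 to 758 higher and 345 to 809 lower, and those without overlap 1485 to 2069 and 1522 to 2328, with fewer libraries to separate. The difference between the series had 0 to 2656 genes past the threshold and 283 to 5015 at an unadjusted p under 0.05, the highest both without male WT 2; leaving out a male library leaves 1 in its group, which is assumed to vary like the other groups, and Eno1b alone passed without female WT 2, and Xist alone without male mutant 1. For all of these except where fewer libraries or another scaling set the count, the cause was not tested.

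Same-numbered mutant and WT libraries had correlations of deviations of -0.319, -0.295 and 0.0236. Deviations from a mean of 3 depend on each other, so these values cannot decide whether the numbers pair the mice. The labels do not say so. With the replicate block 370 higher and 331 lower genes had an unadjusted p under 0.05 and 0 passed; exact p within pairs was 0.5 for Fgfr1 and 0.25 for Fgf23, the smallest that 3 pairs allow. The block changed no call.

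Fgfr1 kept its direction at 0.15 to 0.42 and Fgf23 at 1.62 to 2.62 when 1 library was left out; Fgf23 was 0.92 with a pseudocount of 5 and 2.81 with 0.5. Of the list medians under alternatives, 545 moved by less than the spread and 16 by more. The spread here is the SD of the list mean between libraries of the same group, which 1 library standing apart makes wide. The endothelial list, with means of 6.51, 9.43 and 8.70 in the mutants, is counted as moved by less when female mutant 1 is left out. The 545 therefore do not show that the medians were stable. Among single genes, 15 values took the other sign, none past the threshold. With quantile normalization Col1a1 was 0.30 and Col1a2 0.14. Kcnj2 was 0.0029 with equal totals. Without female mutant 1 and female WT 3, Kcnj2 was 0.091, Xist -0.00302, Cox6a1 0.00021 and Trac 0.43. When 1 library was left out Kcnj2 ran from -0.21 to 0.11 (above 0 without female mutant 1 or female WT 1), Nefl from -1.61 to 0.0092 (female mutant 1), Trac from -0.63 to 0.18 (female mutant 1, female WT 1 or female WT 3), Il2rb from -0.38 to 0.22 (female WT 2) and Ppbp from -1.26 to 0.055 (female WT 1). For these single genes the cause was not tested. Depth limits Fgf23, Slc15a2 and other genes of a few reads, most in female WT 3.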

Other observations

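The genes in this paragraph were chosen after their values were seen, and none passed the test across all genes. H2-Aa, a class II histocompatibility gene, stood at 739, 240 and 564 normalized counts in the mutants and at 36, 154 and 94 in WT mice, and Cd74, the invariant chain, at 1660, 671 and 1469 against 143, 521 and 283, both without overlap. H2-Ab1 had 796, 626 and 1127 against 371, 647 and 434, with overlap. In the labelled male libraries H2-Aa had 845 and 121 in the mutants and 191 and 190 in WT mice. Cd4, which mouse T cells carry, stood at 567, 571 and 657 against 227, 226 and 480 in the female libraries, while the other tested T and NK cell markers, Lck (0.58), Trac (-0.18) and Il2rb (-0.08), had overlapping groups.

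Beside Ace, other genes of the renin-angiotensin system were looked up in the same way. Agtr2, the type 2 angiotensin receptor, stood at 768, 393 and 407 against 140, 50 and 193, a difference of 2.16 ± 0.54. Enpep, an aminopeptidase that cleaves angiotensin, stood at 1475, 616 and 1004 against 245, 531 and 316. Neither overlapped, while Agt, the precursor, had 89, 101 and 195 against 496, 148 and 338, with overlap. In the labelled male libraries Agtr2 had 1650 and 409 against 248 and 1113. Prlr, the prolactin receptor, had 162, 51 and 92 against 13, 16 and 18 in females (adjusted p = 0.316 with limma). Dio3, which inactivates thyroid hormone, had 94, 243 and 206 against 1041, 461 and 765, and Thbs1, a matrix glycoprotein, 9567, 26337 and 12800 against 53074, 32544 and 50129.

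Some genes were near 0 in some libraries and high in others without regard to genotype. Gm8615 had 2, 286 and 4 normalized counts in the female mutants and 246, 247 and 235 in the female WT mice, with 2 and 299 in the labelled male mutants and 333 and 1 in the male WT mice. Serpina3h had 223, 254 and 196 against 18, 426 and 15 in females, and 462 and 380 against 443 and 14 in labelled males.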
